A study of Homo sapiens with 8 samples.

Results

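The genes described here are TRAIL, 4 receptors that bind it, and 3 other members of the tumour necrosis factor (TNF) receptor superfamily, 8 of the 23299 gene symbols measured. They are TNFSF10, which encodes TRAIL itself, TNFRSF10A, TNFRSF10C, TNFRSF10D, TNFRSF11B, TNFRSF1A, TNFRSF12A and TNFRSF19. They were chosen by name with their response to an siRNA against SUPT4H1 already known, TNFRSF10C being among the largest rises, so their own response is given as a description and without a test. SUPT4H1 encodes SPT4, a subunit of the DSIF complex that travels with RNA polymerase II during elongation. RNA with polyA tails was sequenced from human fibroblasts that had received that siRNA or a non-targeting one. The cells were 2 lines, called line 1 and line 2, both described in the labels as population controls and both kept in DMEM with 10% FBS, penicillin and streptomycin. All samples, controls included, were transfected with Lipofectamine RNAiMAX, and the time between transfection and harvest is not given in the sources used here. Each line had 2 samples per siRNA, so 4 control samples stood against 4 SUPT4H1 siRNA samples. Nothing in the labels says that the 2 samples came from cultures grown apart, so a p-value here reflects only how much these 8 samples vary, possibly for technical reasons, and every statement is about these 2 lines.

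TRAIL is a ligand of the TNF family that assembles its receptors into trimers on the cell surface. TNFRSF10A (death receptor 4) and TNFRSF10B (death receptor 5) carry a cytoplasmic death domain, through which the adaptor FADD recruits caspase-8 and starts apoptosis. TNFRSF10C lacks a cytoplasmic part and is held in the membrane by a lipid anchor, TNFRSF10D has a truncated death domain, and both are called decoy receptors because they bind TRAIL without starting that signal. TNFRSF11B, known as osteoprotegerin, is secreted, binds TRAIL, and is better known for binding RANKL, the ligand that drives osteoclast formation. TNFRSF1A is the widely expressed TNF receptor and has a death domain, while TNFRSF12A (the receptor for TWEAK) and TNFRSF19 (TROY) have none. TNFRSF10B is not among the 8 genes and is given for comparison.

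Values are FPKM (fragments scaled by transcript length and by sequencing depth) as deposited, and means are given ± SD. A log2 difference is SUPT4H1 siRNA minus control on log2(FPKM + 1), fitted in limma with the line as a block, unless another contrast is named. That scale understates the change of genes with low FPKM. FPKM summed to 288029 to 305244 per sample, and 11302 to 11420 symbols per sample reached 1 FPKM. The number of fragments per sample is not given in the sources used here. Of the fibroblast markers, 10 of 12 had a usable estimate in every sample, and all of these were at 1 FPKM or more in every sample. After SUPT4H1 siRNA 4 of the 10 fell by limma's test (PDGFRA, PDGFRB, COL3A1 and FAP, the last by most at a log2 difference of -0.31, adjusted p = 9.81e-05) and 1 rose (S100A4, 0.24, adjusted p = 0.00169), with a median of -0.11. Of all 11444 genes tested 15.2% fell and 26.8% rose, with a median of 0.03. The other two, COL1A1 and COL1A2, failed the quantification in all controls, and COL1A2 also in 1 SUPT4H1 siRNA sample. Endothelial and melanocyte markers summed to at most 0.0985 and 0.216 FPKM. The leukocyte list summed to 45.3 to 52.1 FPKM in the controls and 59.5 to 78.3 after SUPT4H1 siRNA, nearly all of it CD68, a lysosomal protein (43.0 to 48.8 against 56.2 to 75.2 FPKM). CD14 was at 1.89 to 3.04 FPKM in the controls and 2.60 to 3.10 FPKM after SUPT4H1 siRNA. It did not pass limma's test (log2 difference 0.14, adjusted p = 0.0801). CD3E was listed at 0 in every sample, and PTPRC and CD79A reached at most 0.206 and 0.249 FPKM. The epithelial list moved with KRT19 (sums of 0.168 to 5.18 against 0.282 to 9.51) and the smooth muscle list with CNN1 (1.86 to 9.71 against 1.31 to 14.4). KRT19 and CNN1 differed more between the lines (line 2 minus line 1, 2.63 and 2.64) than between the siRNAs (log2 differences 0.48 and 0.31). The smooth muscle marker DES went the other way, at 0.584 to 1.19 FPKM in the controls and 0.124 to 0.398 FPKM after SUPT4H1 siRNA. The part of these markers in the results below was not tested. In bulk RNA, fewer cells of a type and less RNA per cell cannot be told apart.

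Promoter sequences are shown for the ligand, whose level was low, and for TNFRSF19, the member whose response differed between the lines, because TNFRSF19 has 2 annotated starts that the gene-level values add together. They are the 250 bases before each start in RefSeq's GRCh38.p14 table, which held 3 of the 8 members. TNFSF10 also has 2 starts in the deposited annotation, but 1 window in that table. Capitals mark matches to any of 6 motifs searched on both strands. They are the TATA box (TATAAA), the GC box (GGGCGG), the AP-1 site (TGANTCA), the CCAAT box, an NF-kB site (GGGA, any base, then TTTCC) and an interferon-stimulated element (GAAA, any 2 bases, then GAAA). The TNFSF10 window, on the minus strand at chr3:172523431-172523680, held TATAAA at position -31 from the start and, on the reverse strand, the interferon-stimulated pattern at position -187. The upstream TNFRSF19 window, on the plus strand at chr13:23570162-23570411, held none of the 6 motifs. The downstream TNFRSF19 window, on the plus strand at chr13:23579110-23579359, held 5 GC boxes, and its GC content was 72.4% against 49.6% upstream and a median of 58.0% over 35116 promoters.
TNFSF10: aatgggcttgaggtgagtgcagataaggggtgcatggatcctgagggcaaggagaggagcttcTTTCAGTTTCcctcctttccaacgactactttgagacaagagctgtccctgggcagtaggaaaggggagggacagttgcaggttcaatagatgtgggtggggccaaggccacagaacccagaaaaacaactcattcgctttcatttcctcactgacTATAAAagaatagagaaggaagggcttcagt
TNFRSF19 upstream start: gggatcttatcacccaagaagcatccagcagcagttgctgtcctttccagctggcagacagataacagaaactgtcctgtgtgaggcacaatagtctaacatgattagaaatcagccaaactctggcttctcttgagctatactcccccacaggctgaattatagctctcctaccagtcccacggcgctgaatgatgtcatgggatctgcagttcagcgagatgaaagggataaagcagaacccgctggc
TNFRSF19 downstream start: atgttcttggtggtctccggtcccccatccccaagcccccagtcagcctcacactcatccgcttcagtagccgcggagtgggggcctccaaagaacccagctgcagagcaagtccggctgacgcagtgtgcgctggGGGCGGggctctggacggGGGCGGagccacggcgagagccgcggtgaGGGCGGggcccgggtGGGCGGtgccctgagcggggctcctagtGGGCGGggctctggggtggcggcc
Among the same 35116 windows, the TATA box occurred in 10.7%, the GC box in 42.6%, the AP-1 site in 6.57%, the CCAAT box in 32.0%, the NF-kB site in 0.527% and the interferon-stimulated element in 3.02%. A match is a description of these letters and says nothing of whether a factor binds there.

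SUPT4H1, the target, was lower in every SUPT4H1 siRNA sample. Line 1 held 25.6 and 25.6 FPKM with the control siRNA and 1.37 and 1.43 FPKM with the SUPT4H1 siRNA. Line 2 held 26.2 and 28.3 FPKM with the first and 1.69 and 1.74 FPKM with the second.

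TRAIL RNA was scarce in both lines. TNFSF10 (hg19 chr3:172223298-172241297) measured 0.620 and 0.840 FPKM in the controls of line 1 and 0.572 and 0.490 FPKM after SUPT4H1 siRNA. In line 2 it measured 0.199 and 0.196 FPKM in the controls and 0.233 and 0.246 FPKM after SUPT4H1 siRNA. The values of the siRNAs did not overlap within either line, but the order was opposite, lower after SUPT4H1 siRNA in line 1 and higher in line 2. The deposited intervals overlapped in both lines and reached 23.8 to 59.5% of the value to either side. These intervals belong to single samples and cannot decide whether the siRNAs differed, so no siRNA difference is read from these values. With a mean of 0.424 FPKM the gene was under the minimum of 1 FPKM and was left out of the fit. All 4 samples of line 1 were above all 4 of line 2 (log2 difference of line 2 minus line 1 -0.42, exact permutation test, 2-sided, p = 0.0286, the smallest value its 70 arrangements allow).

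**Figure D1:**
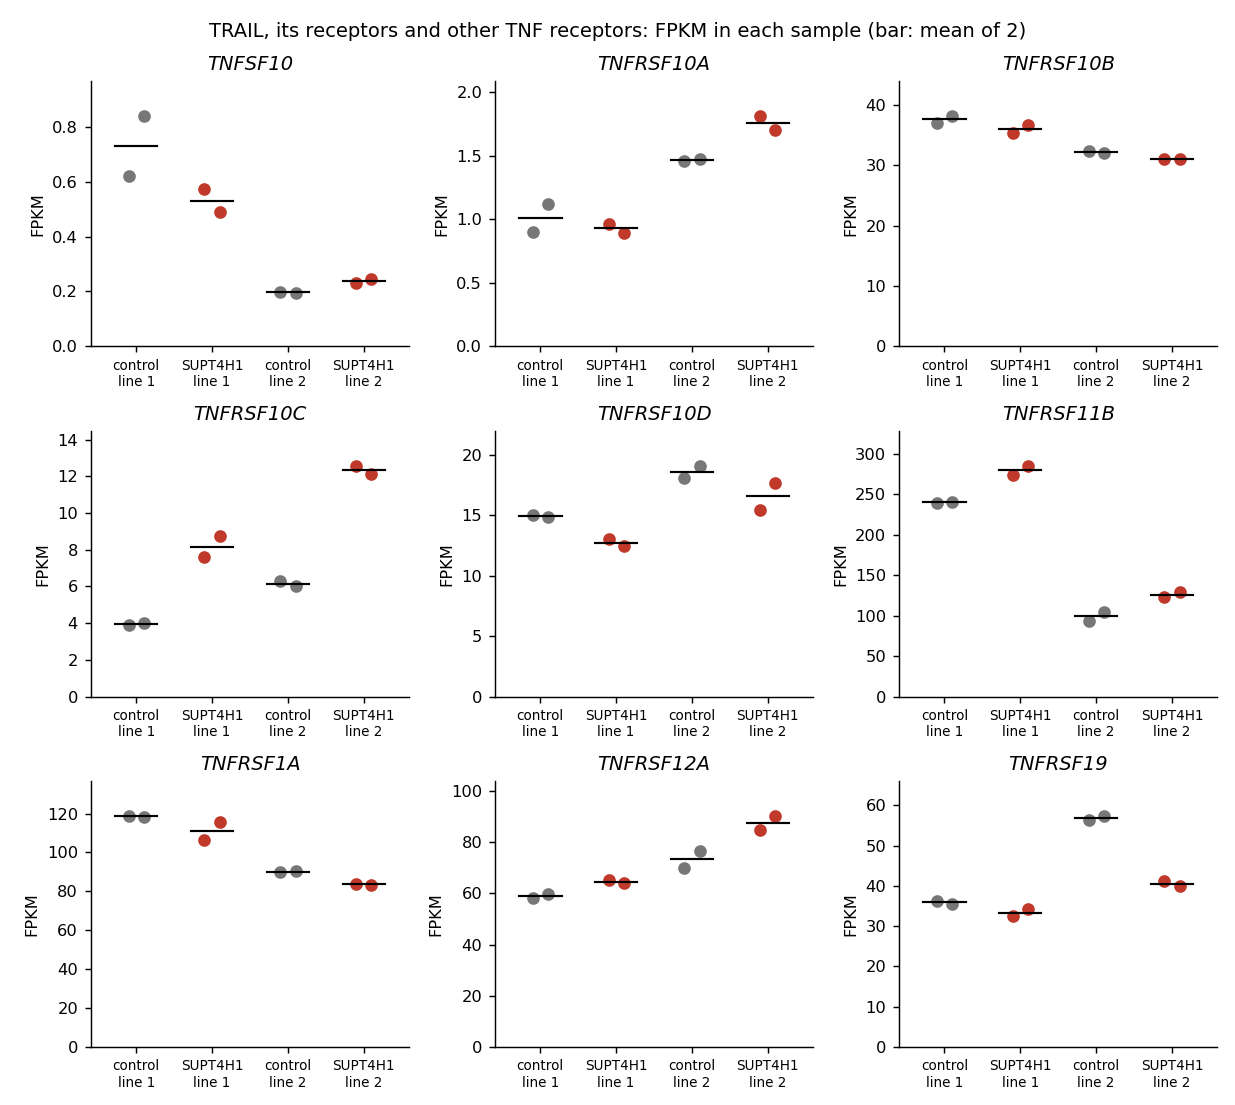
FPKM of the 8 genes and of TNFRSF10B in every sample, 1 panel per gene with its own vertical axis from 0. Grey points are control siRNA samples, red points SUPT4H1 siRNA samples, and bars the mean of 2 samples. In the TNFRSF10C panel all 4 red points (7.61 to 12.6 FPKM) lie above all 4 grey points (3.92 to 6.30 FPKM), while in the other 8 panels the values of the siRNAs overlap across the lines.

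Of the TRAIL receptors with a death domain, TNFRSF10B held nearly all of the RNA. It measured 37.1 and 38.2 FPKM in the controls of line 1 and 35.3 and 36.7 FPKM after SUPT4H1 siRNA, and 32.3 and 32.1 against 31.0 and 31.1 FPKM in line 2. The SUPT4H1 siRNA samples were below the controls of their own line by 4.33 and 3.62%, and the deposited intervals overlapped. Its log2 difference of -0.06 (SE 0.02) did not pass limma's test (Benjamini-Hochberg adjusted p = 0.0794). After scaling the samples by median ratios it was -0.09 and passed (adjusted p = 0.0128).

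TNFRSF10A (chr8:23048970-23082680) was far scarcer. It measured 0.897 and 1.12 FPKM in the controls of line 1 and 0.964 and 0.894 FPKM after SUPT4H1 siRNA, and 1.46 and 1.47 against 1.81 and 1.70 FPKM in line 2. The siRNA groups overlapped in line 1, and the SUPT4H1 siRNA samples were the higher ones in line 2. Over both lines the log2 difference was 0.05 (SE 0.06), and the intervals reached 17.9 to 26.9% of the value to either side. TNFRSF10B exceeded TNFRSF10A by 34.1 to 41.3 times in the controls of line 1 and by 21.8 to 22.1 times in those of line 2.

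The lipid-anchored decoy TNFRSF10C (chr8:22960327-22974950) doubled. In line 1 it measured 3.92 and 4.01 FPKM in the controls and 7.61 and 8.73 FPKM after SUPT4H1 siRNA. In line 2 the controls measured 6.30 and 5.996 FPKM and the SUPT4H1 siRNA samples 12.6 and 12.1 FPKM. All 4 SUPT4H1 siRNA samples were above all 4 controls, and the deposited intervals, 8.84 to 13.9% to either side, did not overlap in either line. The means were 5.06 ± 1.27 and 10.3 ± 2.46 FPKM (n = 4 each), a ratio of 2.06 in line 1 and 2.01 in line 2. The log2 difference was 0.89 (SE 0.04), the 17th largest rise of 11444 genes.

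The other membrane decoy, TNFRSF10D (chr8:22993101-23021543), moved the opposite way. It measured 15.1 and 14.9 FPKM in the controls of line 1 and 13.0 and 12.5 FPKM after SUPT4H1 siRNA, and 18.1 and 19.1 against 15.5 and 17.7 FPKM in line 2. The SUPT4H1 siRNA samples were the lower ones in each line, and across the lines the groups overlapped. TNFRSF10D changed by -14.8% in line 1 and -11.0% in line 2, a log2 difference of -0.19 (SE 0.04).

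The decoys therefore changed unequally, and the balance between them moved more than their sum. The ratio of TNFRSF10C to TNFRSF10D was 0.260 and 0.270 in the controls of line 1 and 0.584 and 0.700 after SUPT4H1 siRNA, and in line 2 it went from 0.348 and 0.314 to 0.812 and 0.686. Of the summed FPKM of the 4 membrane TRAIL receptors, TNFRSF10C held 6.88 and 6.90% in the controls of line 1 and 13.4 and 14.9% after SUPT4H1 siRNA. In line 2 its share was 10.8 and 10.2% in the controls and 20.7 and 19.4% after SUPT4H1 siRNA. Both decoys together held 33.3 and 32.4% against 36.3 and 36.1% in line 1, and 42.0 and 42.8% against 46.1 and 47.6% in line 2. The decoy share was higher after SUPT4H1 siRNA within each line, and it was higher in every sample of line 2 than in any of line 1. TNFRSF10C rose relative to the signalling receptor TNFRSF10B by 1.104 on the log2 scale in line 1 and 1.06 in line 2. Here the log2 ratio of FPKM was taken in each sample without a pseudocount, and the group means of these ratios were compared. TNFRSF10D moved relative to TNFRSF10B by -0.17 and -0.12 on the same scale. The sum of the 4 receptors stayed within 56.9 to 62.6 FPKM in all 8 samples.

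**Figure D2:**
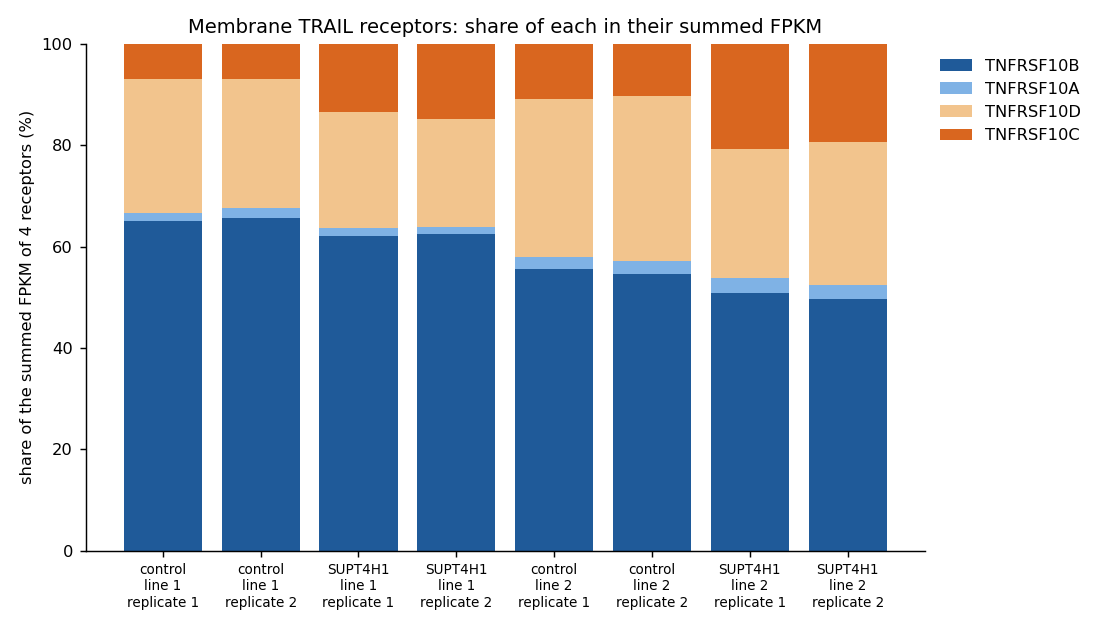
Share of each membrane TRAIL receptor in the summed FPKM of the 4, in percent, 1 stacked bar per sample. Blue shades are the receptors with a death domain and orange shades the decoys. The dark orange part, TNFRSF10C, runs from 6.88 to 10.8% in the controls and from 13.4 to 20.7% after SUPT4H1 siRNA, while TNFRSF10B stays the largest part in every bar.

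TNFRSF11B (osteoprotegerin, chr8:119935796-119964383) was the most abundant of the genes in each of the 4 groups. It measured 239.3 and 240.2 FPKM in the controls of line 1 and 273.6 and 284.9 FPKM after SUPT4H1 siRNA. Line 2 held 93.8 and 104.2 FPKM in its controls and 122.8 and 129.2 FPKM after SUPT4H1 siRNA. The SUPT4H1 siRNA samples were the higher ones in each line, by 16.5 and 27.3%, with intervals that did not overlap, while the difference between the lines exceeded both. The log2 difference was 0.28 (SE 0.04). Its FPKM was 4.13 to 4.84 times the sum of the membrane TRAIL receptors in line 1 and 1.61 to 2.06 times that sum in line 2.

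Among the receptors for other ligands, TNFRSF1A (chr12:6437923-6451283) was lower after SUPT4H1 siRNA. It measured 118.8 and 118.3 FPKM in the controls of line 1 against 106.3 and 115.5 FPKM, and 89.7 and 90.5 against 83.9 and 83.2 FPKM in line 2. The changes of -6.46 and -7.30% were small, the samples of each line did not overlap, and the log2 difference was -0.10 (SE 0.03). TNFRSF1B, the other TNF receptor, was at 2.67 to 3.73 FPKM and did not pass the test (log2 difference -0.04, limma adjusted p = 0.538).

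The TWEAK receptor TNFRSF12A (chr16:3070313-3072383) was higher after SUPT4H1 siRNA. Its controls measured 58.3 and 59.6 FPKM in line 1 and 70.1 and 76.7 FPKM in line 2, against 65.1 and 63.9 FPKM and 85.0 and 90.3 FPKM. The SUPT4H1 siRNA samples were above the controls of their own line by 9.44 and 19.4%, and the log2 difference was 0.19 (SE 0.04). TNFRSF19 (TROY, chr13:24144509-24250244) was lower. It measured 36.3 and 35.4 FPKM in the controls of line 1 against 32.6 and 34.1 FPKM, and 56.4 and 57.4 against 41.3 and 39.9 FPKM in line 2. The SUPT4H1 siRNA samples of line 2 lay above the controls of line 1, so the groups overlapped across the lines. The change was -6.95% in line 1 and -28.7% in line 2, a log2 difference of -0.29 (SE 0.07) over both.

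Set side by side, 3 members were higher after SUPT4H1 siRNA in every sample of each line (TNFRSF10C, TNFRSF11B and TNFRSF12A) and 3 were lower (TNFRSF10D, TNFRSF1A and TNFRSF19), while TNFRSF10A overlapped in line 1 and TNFSF10 took opposite orders in the lines. Of all 11444 genes tested, 28.8% did not overlap within each line as higher and 16.6% as lower, 45.3% in either direction. Across the lines, TNFRSF10C alone of the members had 4 SUPT4H1 siRNA samples that did not overlap its 4 controls, where 11.4% of all genes did not overlap as higher and 5.19% as lower. The members were chosen on this contrast, so nothing is read from these counts. The median log2 difference was 0.03 over all genes and 0.05 over the 7 members with a fitted value.

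The lines differed in every member tested. In line 2, TNFRSF10C was higher by 0.53 (SE 0.04, limma adjusted p = 3.15e-06), TNFRSF10A by 0.41 (SE 0.06, adjusted p = 2.61e-04) and TNFRSF10D by 0.32 (SE 0.04, adjusted p = 9.64e-05) on the log2 scale. TNFRSF19 was higher there by 0.46 (SE 0.07, adjusted p = 2.30e-04) and TNFRSF12A by 0.37 (SE 0.04, adjusted p = 2.78e-05). TNFRSF11B (-1.21, SE 0.04, adjusted p = 1.79e-08) and TNFRSF1A (-0.40, SE 0.03, adjusted p = 2.10e-06) were lower in line 2. Each of these differences had the same sign in the controls and in the SUPT4H1 siRNA samples. The 7 of 7 (5 higher and 2 lower in line 2) stand beside 65.7% of all genes that passed this test, 27.8% as higher and 37.9% as lower in line 2. TNFRSF10B was lower in line 2 (-0.21, SE 0.02, adjusted p = 3.82e-05). In line 1 the order of mean control levels was TNFRSF11B, TNFRSF1A, TNFRSF12A, TNFRSF10B, TNFRSF19, TNFRSF10D, TNFRSF10C, TNFRSF10A and TNFSF10, and in line 2 TNFRSF19 stood above TNFRSF10B. No neighbours in either order had overlapping samples.

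The response of TNFRSF19 differed between the lines, with a log2 difference of -0.10 in line 1 and -0.48 in line 2. The difference of the responses was -0.38 (95% interval -0.48 to -0.27, limma adjusted p = 0.00102), where 9.87% of all genes passed. Both responses had the same direction. For TNFRSF10C the responses were 0.88 and 0.90, and their difference was 0.02 with an interval of -0.16 to 0.20 (adjusted p = 0.929). For the other 5 members tested the difference did not pass either. Its interval ran from 0.00 to 0.43 for TNFRSF10A, from -0.12 to 0.23 for TNFRSF10D, from -0.02 to 0.28 for TNFRSF11B, from -0.01 to 0.27 for TNFRSF12A and from -0.13 to 0.10 for TNFRSF1A (adjusted p between 0.202 and 0.927). Leaving out the second control of line 2, TNFRSF11B passed (difference 0.20, adjusted p = 0.0473).

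**Figure D3:**
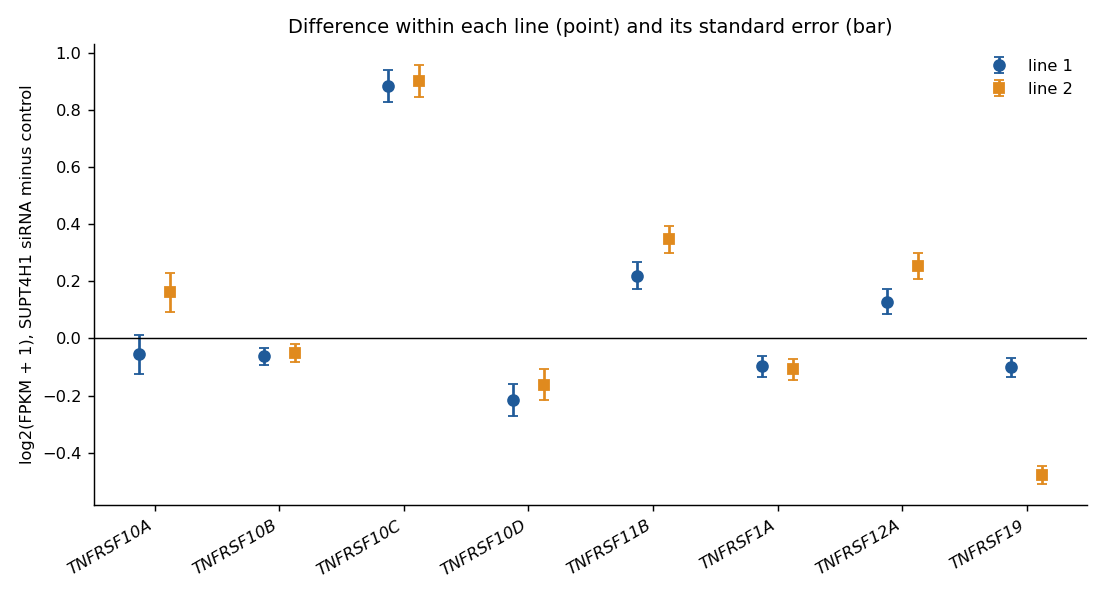
Log2 difference of SUPT4H1 siRNA minus control on log2(FPKM + 1) within line 1 (blue circles) and line 2 (orange squares), 2 samples against 2, for the 7 members tested and TNFRSF10B. Bars are standard errors from the fit of 4 group means. The points of TNFRSF10C lie together at 0.88 and 0.90, and those of TNFRSF19 lie apart at -0.10 and -0.48.

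The 4 membrane TRAIL receptor genes lie side by side on chromosome 8, and TNFRSF10C stood apart from the genes around it in size of change. Of the tested neighbours within 200 kb of the cluster, R3HCC1 rose (log2 difference 0.18, limma adjusted p = 6.19e-04) and CHMP7, a subunit of the ESCRT-III membrane remodelling machinery, rose (0.12, adjusted p = 0.0398). LOXL2, a lysyl oxidase that crosslinks collagen, fell (-0.30, adjusted p = 0.00679). RHOBTB2 did not pass (-0.05, adjusted p = 0.217). The noncoding gene LOC254896 overlaps the start of TNFRSF10C. It measured 0.292 and 0.0979 FPKM in the controls and 0.321 and 0.346 after SUPT4H1 siRNA in line 1, and 0.675 and 0.496 against 0.446 and 0.507 in line 2. Its level was well under that of TNFRSF10C in every sample, and whether counting used the strand is not given in the sources used here. In GENCODE 29, 39.7% of the 50-base words of TNFRSF10C transcripts also occur in AC107959.4 and AC107959.5, which overlap it, and 0% occur outside overlapping genes or in another TRAIL receptor. How the deposited values treat reads shared by overlapping transcripts is not given in the sources used here.

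**Figure D4:**
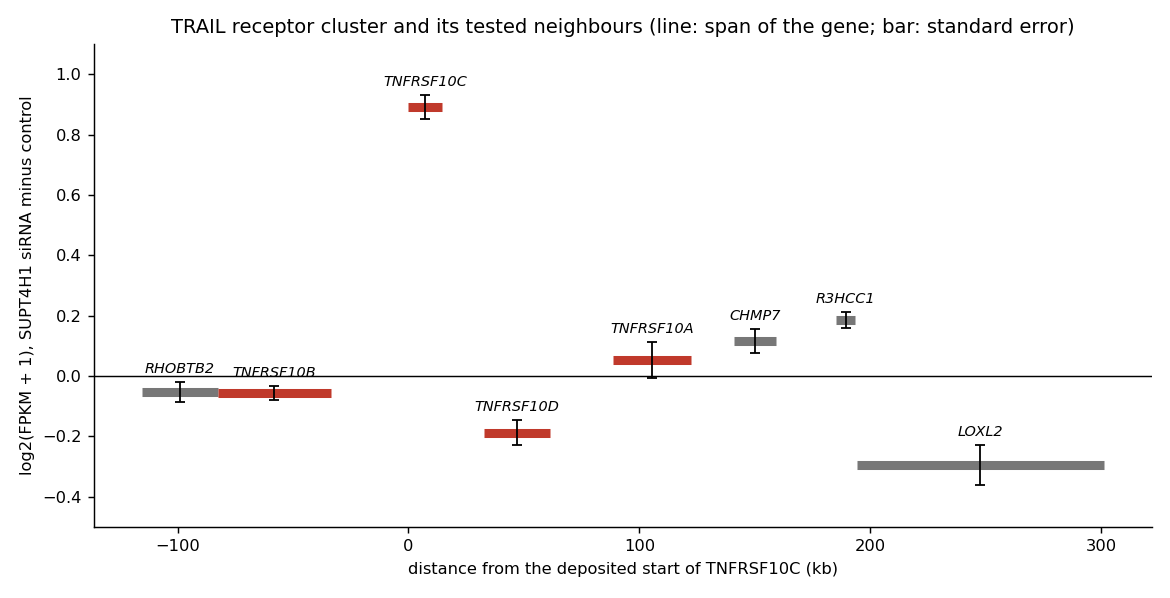
Log2 difference of SUPT4H1 siRNA minus control on log2(FPKM + 1), line as block, for the TRAIL receptor genes (red) and tested neighbours (grey), against distance in kb from the start of TNFRSF10C. Thick lines are gene spans and bars standard errors. TNFRSF10C stands at 0.89, and the other 7 genes lie between -0.30 and 0.18.

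Genes whose pattern was most like that of TNFRSF10C were found by the Pearson correlation of log2(FPKM + 1) over the 8 samples after the mean of each line was subtracted. They were GPNMB, a membrane glycoprotein (r = 0.998), SPTLC1, a subunit of serine palmitoyltransferase (0.997), GPSM2, a regulator of G proteins and spindle orientation (0.996), PPAP2A, a lipid phosphate phosphatase (0.996), and the nuclear receptor ESRRA (0.996). Their log2 differences were 0.33, 0.16, 0.38, 0.40 and 0.24, all smaller than that of TNFRSF10C. Since the siRNA is what remains after the line means, 1600 of 11443 genes (14.0%) reached an r of 0.9 in the same samples.

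Beyond the members, the TNF receptor genes that passed the test on the FPKM as deposited all rose. Of 22 other receptor genes 10 were abundant enough to test, 4 rose and none fell by limma's test, at a median log2 difference of 0.09 against 0.03 for all genes. In the same fit 26.8% of all 11444 genes rose and 15.2% fell, 42.1% in either direction. Of the genes that passed, 63.8% rose, and after scaling by median ratios 50.1% did (2319 higher, 2310 lower). After that scaling 3 of these receptor genes passed as higher and 1, TNFRSF10B, as lower. At an unadjusted p under 0.05, 1 of the 10 (TNFRSF10B) was lower. TNFRSF21 (death receptor 6, which has a death domain) rose most. It measured 7.89 and 7.30 FPKM in the controls of line 1 and 13.6 and 12.8 FPKM after SUPT4H1 siRNA, and 11.5 and 11.3 against 16.8 and 15.9 FPKM in line 2. All 4 SUPT4H1 siRNA samples were above all 4 controls (log2 difference 0.61, SE 0.05, limma adjusted p = 3.85e-05). FAS, the death receptor for Fas ligand, measured 21.7 and 21.9 FPKM in the controls of line 1 and 24.0 and 22.7 FPKM after SUPT4H1 siRNA, and 20.6 and 20.9 against 24.1 and 25.4 FPKM in line 2. These values did not overlap either (0.17, SE 0.04, adjusted p = 0.00602). EDA2R, a receptor for an ectodysplasin isoform (0.18, adjusted p = 0.00226), and TNFRSF14, the receptor for LIGHT (0.15, adjusted p = 0.0145), rose within each line but overlapped across the lines. Without a term for the line none of the 4 passed limma's test (2 had an unadjusted p under 0.05), where 3.56% of all genes passed as higher and 1.78% as lower, 5.34% in either direction, the nearest being FAS (adjusted p = 0.0676) and TNFRSF21 (adjusted p = 0.0702).

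Of 17 ligand genes other than TNFSF10, 5 were abundant enough to test and 2 rose, beside 26.8% of all genes. TNFSF12, which encodes TWEAK, the ligand of TNFRSF12A, was the most abundant of them at 17.2 to 20.0 FPKM in the controls and 17.2 to 18.9 FPKM after SUPT4H1 siRNA, and it did not pass (log2 difference -0.05, limma adjusted p = 0.369). TNF, FASLG and CD40LG were listed at 0 in all samples. TNFSF13B, which encodes the B cell factor BAFF, rose (log2 difference 0.48, SE 0.11, limma adjusted p = 0.00816). It measured 1.89 and 1.69 FPKM in the controls of line 1 and 3.92 and 3.80 FPKM after SUPT4H1 siRNA, and 0.268 and 0.271 against 0.388 and 0.466 FPKM in line 2. TNFSF9, the ligand of 4-1BB, rose from 1.22 ± 0.132 to 1.61 ± 0.182 FPKM (n = 4 each, log2 difference 0.24, adjusted p = 0.0171). No ligand fell by limma's test, where 15.2% of all genes fell, nor at an unadjusted p under 0.05, and the median of the 5 was 0.07. Without a term for the line none passed, and 1 was higher at an unadjusted p under 0.05. TNFSF12, TNF, FASLG and CD40LG were named after their values were seen.

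In the list of death receptor signalling and its inhibitors, 26 of 28 genes could be tested, 7 rose and 1 fell, with a median of 0.05. Of all genes 26.8% rose and 15.2% fell. The share of the list that rose was near that of all genes, so the count of rises shows nothing particular to the list. BCL2L1, which encodes BCL-XL, an inhibitor of the mitochondrial pathway, rose by 0.31 (limma adjusted p = 0.00261), and the survivin gene BIRC5 rose by 0.24 (adjusted p = 0.0214). The effector caspase gene CASP6 rose by 0.25 (adjusted p = 9.85e-04), the initiator CASP10 by 0.20 (adjusted p = 0.0149), and CYCS, which encodes cytochrome c, by 0.21 (adjusted p = 9.85e-04). RIPK3, the kinase of necroptosis, fell (-0.21, adjusted p = 0.0322). The adaptor FADD and the initiator CASP8, which FADD recruits to the TRAIL death receptors, did not pass (log2 differences 0.08 and 0.06, adjusted p = 0.127 and 0.194). FADD and CASP8 were named after their values were seen.

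Of the adaptors that link TNF receptors to NF-kB and JNK, 27 of the 28 in the files could be tested, 8 rose and 1, TRAF5, fell (-0.12, limma adjusted p = 0.0343), with a median of 0.06, beside 26.8% of all genes that rose and 15.2% that fell. TRAF4 rose by 0.33 (adjusted p = 0.00145), from 7.67 and 7.61 to 8.65 and 9.03 FPKM in line 1 and from 6.98 and 7.32 to 10.1 and 10.5 FPKM in line 2. TRAF3, an adaptor that holds the noncanonical pathway in check, rose by 0.19 (adjusted p = 0.00367). The inhibitor gene NFKBIE (0.20, adjusted p = 0.0336), the kinase genes CHUK (0.17, adjusted p = 0.00522) and IKBKB (0.16, adjusted p = 0.0159), and TAB3 (0.16, adjusted p = 0.00917) rose as well. TRAF5 was named after its value was seen. Over the 4 lists, 21 of 68 tested genes rose and 2 fell with the line as a block (26.8% and 15.2% of all genes), and without a term for the line 2 rose (CYCS and TRAF4) and none fell by limma's test (13 higher and 0 lower at an unadjusted p under 0.05).

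**Figure D5:**
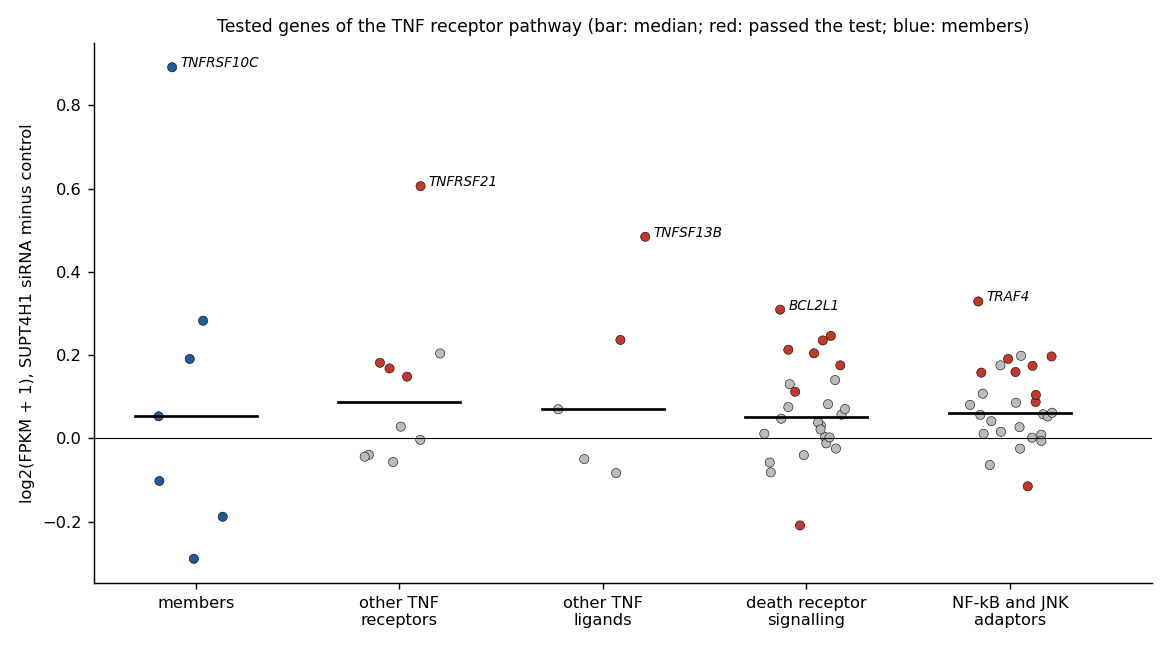
Log2 difference of SUPT4H1 siRNA minus control on log2(FPKM + 1), line as block, for each tested gene of the 8 members (blue) and of 4 lists of the TNF receptor pathway (red, passed the test at an adjusted p of 0.05, grey, did not). Black bars are medians and the horizontal spread of points has no meaning. TNFRSF10C at 0.89 and TNFRSF21 at 0.61 lie above all other points, and the list medians lie between 0.05 and 0.09.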

How the data were processed

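The authors deposited 1 table per sample with FPKM, interval bounds and a status for 27032 rows, and the submitters' processing notes name hg19. Which aligner, quantifier and annotation were used, and whether strand was, is not given in the sources used here. Deposited locus starts count from 0 (1288 of 1337 miRNA hairpins have a length equal to end minus start), so 1 was added. Rows spanning under 200 bases (2141 per table) were left out and rows of one symbol summed. This rule was kept after 8 row rules had been looked at, which left 11434 to 11486 genes to test. Genes with a mean of at least 1 FPKM and status OK in every sample were tested, 11444 in all, and 12 others failed on status.

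The test was limma 3.58.1 (R 4.3.3), 2-sided, on log2(FPKM + 1) with a mean-variance trend and Benjamini-Hochberg adjustment over all genes tested, at a threshold of 0.05, with the line as a block. A fit of 4 group means gave the response in each line. The script was checked on simulated data. The line pairs the groups because its samples share their cells, and deviations of same-line samples correlated at 0.883 to 0.899 across genes. The study's design has no such term, so the fit without it stands beside the counts it changes.

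The members, lists, markers and tests were chosen with earlier results of these data known. The motifs, the 50-base words and the receptor shares were chosen after the files had been seen. Genes named are the members, SUPT4H1, TNFRSF10B, FAS and TNFRSF1B, the up to 6 largest changes that passed per list, neighbours within 200 kb, rows that overlap a member, and the 5 genes most like TNFRSF10C. Others named, single marker genes included, were chosen after their values were seen. Alternatives were a pseudocount of 0.1, no filter, a minimum of 2 FPKM, scaling by median ratios, no trend, other blocks, leaving out each sample, and, added after seeing the data, other row rules. Deposited intervals belong to 1 sample each and do not measure the spread between samples. Which errors they cover is not given in the sources used here. Python 3.11.15, numpy 2.4.6, pandas 2.3.3, scipy 1.17.1 and matplotlib 3.10.9 were used.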

Additional observations from a re-analysis of the deposited data

Results flagged for a closer look

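The response to SUPT4H1 siRNA differed between the lines for 10 of 51 genes looked at, not all of which could be tested. The test was limma's, of the difference of responses (line 2 minus line 1, log2 scale), which 9.87% of all genes passed. The 51 include genes chosen after their values were seen, CD68, KRT19 and CNN1 among them. Their count is therefore not read against that share. For TNFRSF19 the difference was -0.38 (adjusted p = 0.00102) and for LOXL2, near the TRAIL receptor cluster, -0.38 (adjusted p = 7.74e-04), both with the larger fall in line 2. TNFSF13B differed by -0.63 (adjusted p = 0.00208), with the larger rise in line 1. Its values in line 2 were 0.268 to 0.466 FPKM, where log2(FPKM + 1) understates a change. As log2 ratios of mean FPKM without a pseudocount, its responses were 1.11 in line 1 and 0.66 in line 2. BCL2L1 differed by 0.32 (adjusted p = 0.00115), TRAF4 by 0.28 (adjusted p = 0.0134) and IKBKB by 0.20 (adjusted p = 0.0436), each with the larger rise in line 2. RIPK3 differed by 0.32 (adjusted p = 0.0467), with the larger fall in line 1. Among the markers of other cell types, CD68 (0.53, adjusted p = 9.42e-05), KRT19 (0.68, adjusted p = 0.00362) and CNN1 (0.45, adjusted p = 0.0223) differed as well, each with the larger rise in line 2. KRT19 was at 0.159 FPKM in its lowest control, where the scale likewise understates a change. Outside the 51 genes, 3 of the 10 fibroblast markers tested passed too. They were FBLN1 (-0.39, adjusted p = 0.00102), DCN (-0.28, adjusted p = 0.0281) and LUM (-0.24, adjusted p = 0.0382). So did TNFSF4 (0.50, adjusted p = 0.0183), HTRA2 (0.34, adjusted p = 0.00893), RELB (0.33, adjusted p = 0.0158) and RIPK1 (0.28, adjusted p = 0.0147) of the pathway lists. In the full lists 0 of 10 other receptors, 2 of 5 ligands, 4 of 26 death receptor signalling genes and 3 of 27 adaptors passed. For TNFSF10 the SUPT4H1 siRNA samples were below both controls in line 1 and above both in line 2, a difference of 0.22 that was not tested because the gene was under the minimum FPKM. The lowest SUPT4H1 siRNA sample of CHMP7, at 8.45 FPKM, lay apart from the other 3 of its group. It was 1 of 102 groups of 4 examined. Each group pools samples of both lines, so how often chance alone would set a sample apart is not known.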

How the results depend on the processing

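Without a replicate block, 407 genes passed as higher and 204 as lower, against 3071 and 1743 with the line as a block, and of the pathway genes outside the members 2 passed as higher and 0 as lower, against 21 and 2. FAS no longer passed there. The replicate numbers do not pair the samples within a line (correlation of differences 0.103 in line 1 and 0.0502 in line 2). A block of line and number left 0 pathway genes lower. Lower pathway genes were 1 with no filter, 4 after scaling by median ratios, and 0 to 2 when each sample was left out. Genes whose response differed between the lines were 1130, 729 with no filter and 627 to 875 with a sample left out. The siRNA difference of the 7 members with a fitted value kept its sign under each alternative run that fitted it. Other blocks, other FPKM filters and the fit without a trend leave this difference unchanged by construction. Its sign could not change there, so those runs say nothing of how firm it is. Differences of response near 0 did not keep theirs. TNFRSF10C gave -0.029 at a pseudocount of 0.1 and -0.072 to 0.11 with a sample left out. With a sample left out, TNFRSF10D gave -0.036 to 0.14, TNFRSF10B -0.017 to 0.039 and TNFRSF1A -0.071 to 0.048. The line difference of FAS ran from -0.026 to 0.025. The cause of these changes was not tested. Keeping all rows or leaving out small RNA names, both added after seeing the data, changed no sign or call of a member's line difference or difference of response. The deposited intervals were wide for TNFSF10 (23.8 to 59.5% to either side) and TNFRSF10A (17.9 to 26.9%).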
